A study of Mus musculus with 20 samples.

Results

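Cell division was uneven among the high-fat libraries of this series, and the account that follows is of the 4 libraries in which it was highest. The series holds 20 RNA libraries of epididymal fat, a visceral fat pad, from male C57BL6/J mice, a common inbred strain. There were 4 libraries each from mice fed a high-fat diet for 2, 4, 6 and 14 days, and 4 from mice on normal chow, labelled day 0. The labels call them replicates without saying how many mice gave each library, and they name no other treatment or allele. For each of the 16 high-fat libraries the CPM values (counts scaled to the library's total) of Mki67, Top2a and Ccna2 were summed. The 4 highest of the 16 were set against the other 12, whatever their day. Since the 4 were chosen by these measured sums, the differences between the 4 and the 12 are given as a description with no test.

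Mki67 encodes the Ki-67 antigen that coats mitotic chromosomes, Top2a the topoisomerase that untangles DNA before chromosomes separate, and Ccna2 cyclin A2, which drives S phase and entry into mitosis. Their mRNAs build up in dividing cells and are scarce in resting ones. Mature fat cells seldom divide, whereas adipocyte progenitors, endothelial cells, fibroblasts and macrophages of fat can, and a fat pad that grows needs new vessels and a remodelled matrix around them. Bulk tissue RNA cannot tell fewer cells of a type from less RNA per cell.

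The summed level of the 3 genes was 391 CPM in day 4 replicate 2, 306 CPM in day 4 replicate 4, 301 CPM in day 4 replicate 3 and 216 CPM in day 6 replicate 4. In the other 12 it ran from 16.7 to 56.1 CPM with a median of 35.3 CPM, and the 4 chow libraries had 8.45 to 27.5 CPM. The lowest of the 4, day 6 replicate 4, was 3.85 times the highest of the 12, which was day 6 replicate 3. A library of day 4, replicate 1, had only 36.1 CPM and falls among the 12. Neither the mean over a longer list of cell-cycle genes nor CPM on rescaled totals changed which 4 libraries ranked highest. Of 365 measured genes on that list (397 listed), 263 were higher in each of the 4 than in each of the 12 and 0 were lower, values that follow from the choice of libraries.

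**Figure D1:**
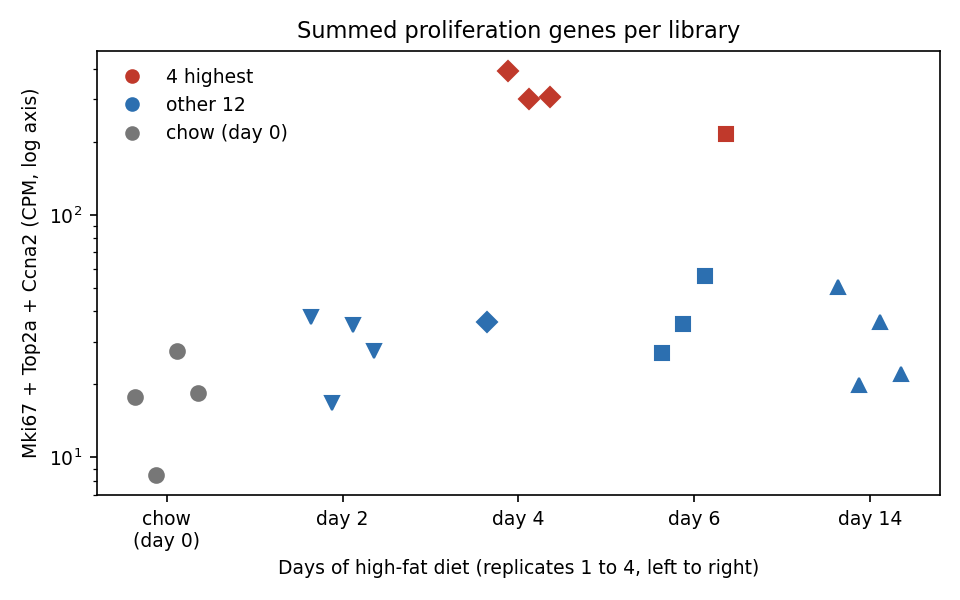
Summed CPM of Mki67, Top2a and Ccna2 in each of the 20 libraries, on a log axis, by day. The 4 highest (red) lie at 216 to 391 CPM, the other 12 high-fat libraries (blue) at 16.7 to 56.1 CPM and the chow libraries (grey) at 8.45 to 27.5 CPM.

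Day 4 replicate 1 and day 6 replicate 4 each lie on the other side of the split from the rest of their day. If their labels had been exchanged, the 4 would be the 4 libraries of day 4, and the level and the day could not be told apart; the labels were used as given and this was not tested. Across the 14889 tested genes outside the cell-cycle list, log2 CPM of day 6 replicate 4 correlated at 0.983 to 0.986 with the 3 day 4 libraries of the 4 and at 0.975 to 0.983 with the rest of day 6. Day 4 replicate 1 correlated at 0.966 to 0.978 with the rest of day 4 and at 0.961 to 0.989 with the other 11 of the 12, while the 3 other day 4 libraries correlated with each other at 0.973 to 0.981 and the 12 among themselves at 0.943 to 0.99. The 2 ranges for day 4 replicate 1 overlap. These correlations are across genes, which are not independent replicates. Total counts were 4578703 to 32363044 in the 4 and 1916829 to 26809665 in the 12, so their depths overlapped. Marker sums of other tissues overlapped between the 4 and the 12, though most of the markers were lower on average in the 4. Mesothelial markers (18 measured of 19) summed to 954 to 1170 CPM in the 4 and 618 to 1533 CPM in the 12. Igfbp5, at 617 to 679 CPM in the 4, made up much of that sum. Only 3 of the 18 were higher on average in the 4, with a median difference of -0.53 on the log2 scale. The 5 red-cell genes summed to 268 to 521 CPM in the 4 and 274 to 941 CPM in the 12. Of these 5, 0 were higher on average in the 4, with a median difference of -0.38. The 6 measured of 18 duct genes of the epididymis summed to 1.47 to 9.54 CPM in the 4 and 3.08 to 14.3 CPM in the 12, with no read of Epcam, Crisp1 or Krt5 in any of the 4, which allows up to 0.0524 CPM over them together. Of the 6, 0 were higher on average in the 4. In chow the 6 summed to 9.71 to 389 CPM. Epcam was at 41.2 CPM in chow replicate 4 and at 0.116 to 0.456 CPM in chow replicates 1 to 3. Chow replicate 4 was kept in the comparison with chow below.

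Many cell-cycle promoters carry CCAAT boxes, bound by the factor NF-Y, which is also known at promoters of cholesterol synthesis genes. The 250 bases before the start of 2 of the 3 chosen genes are shown beside those of Tm7sf2, a sterol synthesis gene higher in the 4, and Cfd, a fat-cell gene lower in the 4. They are RefSeq sequences on GRCm38.p6 in the direction of the gene, with CCAAT or its reverse complement ATTGG in capitals. Top2a lies at chr11:99024190-99024439 (minus strand), Mki67 at chr7:135716380-135716629 (minus strand), Tm7sf2 at chr19:6067851-6068100 (minus strand) and Cfd at chr10:79890603-79890852 (plus strand).
Top2a: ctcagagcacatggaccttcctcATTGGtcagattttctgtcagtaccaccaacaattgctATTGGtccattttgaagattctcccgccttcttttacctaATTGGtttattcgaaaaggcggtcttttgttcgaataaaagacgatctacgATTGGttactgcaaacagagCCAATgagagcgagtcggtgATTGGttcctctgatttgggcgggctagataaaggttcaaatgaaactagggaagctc
Mki67: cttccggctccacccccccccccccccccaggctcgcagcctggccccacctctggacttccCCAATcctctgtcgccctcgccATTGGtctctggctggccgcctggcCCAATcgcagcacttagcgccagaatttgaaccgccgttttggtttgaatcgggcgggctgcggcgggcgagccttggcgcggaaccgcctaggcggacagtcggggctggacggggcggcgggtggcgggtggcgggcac
Tm7sf2: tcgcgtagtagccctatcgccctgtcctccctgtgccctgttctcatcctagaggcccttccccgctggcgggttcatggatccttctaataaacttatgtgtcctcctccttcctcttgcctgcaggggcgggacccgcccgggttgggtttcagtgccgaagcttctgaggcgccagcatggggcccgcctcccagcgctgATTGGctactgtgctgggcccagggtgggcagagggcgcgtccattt
Cfd: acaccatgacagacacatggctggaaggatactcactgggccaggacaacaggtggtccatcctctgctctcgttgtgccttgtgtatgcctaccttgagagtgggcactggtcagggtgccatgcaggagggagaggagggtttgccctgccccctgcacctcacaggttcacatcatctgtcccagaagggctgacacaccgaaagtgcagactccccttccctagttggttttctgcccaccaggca

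Top2a held 6 matches, Mki67 3, Tm7sf2 1 and Cfd 0. Over both strands CCAAT was found in 34.5% of 27018 promoter windows and in 36% of the 11159 windows of tested genes. It was in 62.4% of 210 windows of cell-cycle genes higher in all 4 than in all 12. Outside the cell cycle it was in 36.1% of 593 windows of genes higher in the 4 and in 28.3% of 374 windows of genes lower in the 4. Of all tested cholesterol genes, whether or not they separated the libraries, 16 of 18 windows (88.9%) held the letters. These matches describe letters in a window and not binding.

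Outside the cell-cycle list, 787 genes were higher in each of the 4 libraries than in each of the 12, which is 5.29% of 14889, and 479 genes (3.22%) were lower. Of the 4 libraries 3 are from day 4 and 1 is from day 6, and 1 library of day 4 is among the 12. Within day 4, the difference between replicates 2 to 4 and replicate 1 can be set beside the difference within day 6 between replicate 4 and replicates 1 to 3, which uses no library of the first. Across the 14889 genes the 2 differences correlated with Pearson's r of 0.62 and Spearman's rho of 0.58, over genes that share libraries and scaling. Of 375 genes that differed by more than 2-fold within both days, 364 went in the same direction, 232 of them up and 132 down in the libraries of the 4. Each difference has 1 library on a side, day 4 replicate 1 or day 6 replicate 4. Both follow the split that the proliferation sum chose, so they are a description only.

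**Figure D2:**
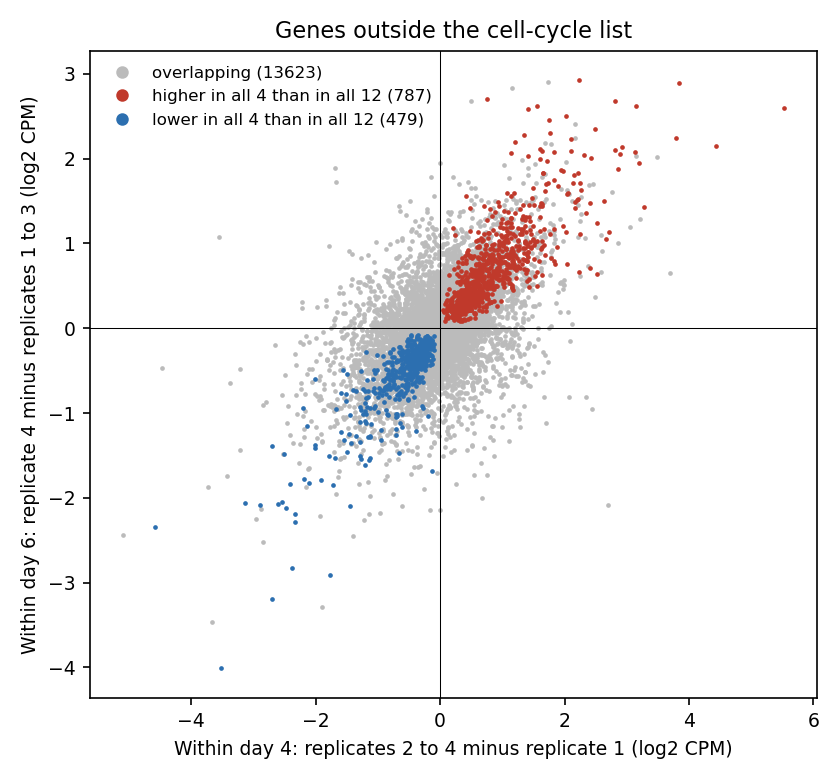
Each point is 1 of 14889 genes outside the cell-cycle list, with its log2 CPM difference within day 4 (x axis, replicates 2 to 4 minus replicate 1) and within day 6 (y axis, replicate 4 minus replicates 1 to 3). Genes higher in all 4 than in all 12 (red, 787) lie at the upper right and genes lower in all 4 (blue, 479) at the lower left. Their placement follows from how they were picked, since both axes subtract libraries of the 12 from libraries of the 4.

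The labelled days give a comparison whose groups are set by the labels, day 4 against the mean of days 2, 6 and 14. Day 4 was picked for it because earlier results of these data put most of the cell-cycle rise there. It also holds 3 of the 4 libraries, so the comparison is no independent check of them. With edgeR's quasi-likelihood test and Benjamini-Hochberg adjustment over 15254 genes, 601 genes outside the cell cycle rose (4.04%) and 467 fell (3.14%) at an adjusted p under 0.05. The calls rest on each of the 3 proliferating libraries of day 4. Without any 1 of them edgeR called 0 genes, with 2414 to 2930 at an unadjusted p under 0.05, and DESeq2 called 167 to 511. Leaving out day 4 replicate 1 and day 6 replicate 4 sets 3 of the 4 against 11 of the 12, the split that the proliferation sum chose, so its counts are a description and support nothing. There 1645 genes were past the same threshold upward (10.9%) and 1559 downward (10.4%). All adjusted p-values below are from the test with all 20 libraries. Most genes named below were picked by their gap between the 4 and the 12, so these p-values are no support for that gap. Against chow, 2464 genes rose on day 4 (16.5%) and 2635 fell (17.7%). The list counts below are to be set against the shares of all genes outside the cell cycle. Without overlap these were 5.29% higher and 3.22% lower. For day 4 against the other high-fat days they were 4.04% up and 3.14% down.

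Genes of the cytoskeleton and cell movement shifted together. All 36 measured members were higher on average in the 4 than in the 12, with a median difference of 0.53 on the log2 scale, against -0.01 over all tested genes outside the cell cycle. Of the 36, 16 were higher without overlap and 0 lower, where 5.29% and 3.22% of all genes were. The median was 0.58 within day 4 and 0.41 within day 6. On day 4, 13 of the 36 rose against the other high-fat days (4.04% of all genes rose) and 0 fell. Tubb6, a beta-tubulin of microtubules, had 119, 105, 109 and 76.7 CPM in day 4 replicates 2 to 4 and day 6 replicate 4, against 28.4 to 52.3 CPM in the 12 (median 41.5 CPM). The 4 did not overlap the 12, day 6 replicate 4 was the lowest of the 4, and day 4 replicate 1 had 41.7 CPM, near the median of the 12. Tubb6 rose on day 4 against the other days by 1.08 ± 0.22 on the log2 scale (SE, adjusted p = 0.013). The alpha-tubulin gene Tuba1c averaged 46.9 ± 13.9 CPM in the 4 and 21.1 ± 4.24 CPM in the 12 (SD, n = 4 and 12). Tpm4, a tropomyosin of actin cables, averaged 463 ± 32.8 CPM in the 4 and 249 ± 50.6 CPM in the 12. Both rose on day 4 (adjusted p = 0.014 and 0.039). Tmsb10, which binds actin monomers, averaged 130 ± 13.4 CPM in the 4 and 65.6 ± 12.6 CPM in the 12, with an adjusted p of 0.068 on day 4.

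Contractile genes of vessel walls and smooth muscle moved less evenly. Of 20 mural-cell markers 5 were higher without overlap and 0 lower, and the median difference was 0.29. Acta2, smooth muscle actin, had 288, 273, 278 and 174 CPM in the 4, against 43.0 to 143 CPM in the 12 (median 84.6 CPM). The 4 lay above all of the 12, and day 4 replicate 1, at 52.7 CPM, was below their median. Acta2 rose on day 4 by 1.19 ± 0.29 on the log2 scale (adjusted p = 0.025), the only one of the 20 markers called in that comparison. That share is close to the 4.04% of all genes that rose. The pericyte proteoglycan gene Cspg4 averaged 113 ± 6.03 CPM in the 4 and 65.1 ± 23.8 CPM in the 12. The smoothelin gene Smtn averaged 71.0 ± 6.11 CPM in the 4 and 42.4 ± 4.75 CPM in the 12. Neither passed the day 4 test (adjusted p = 0.066 and 0.11).

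**Figure D3:**
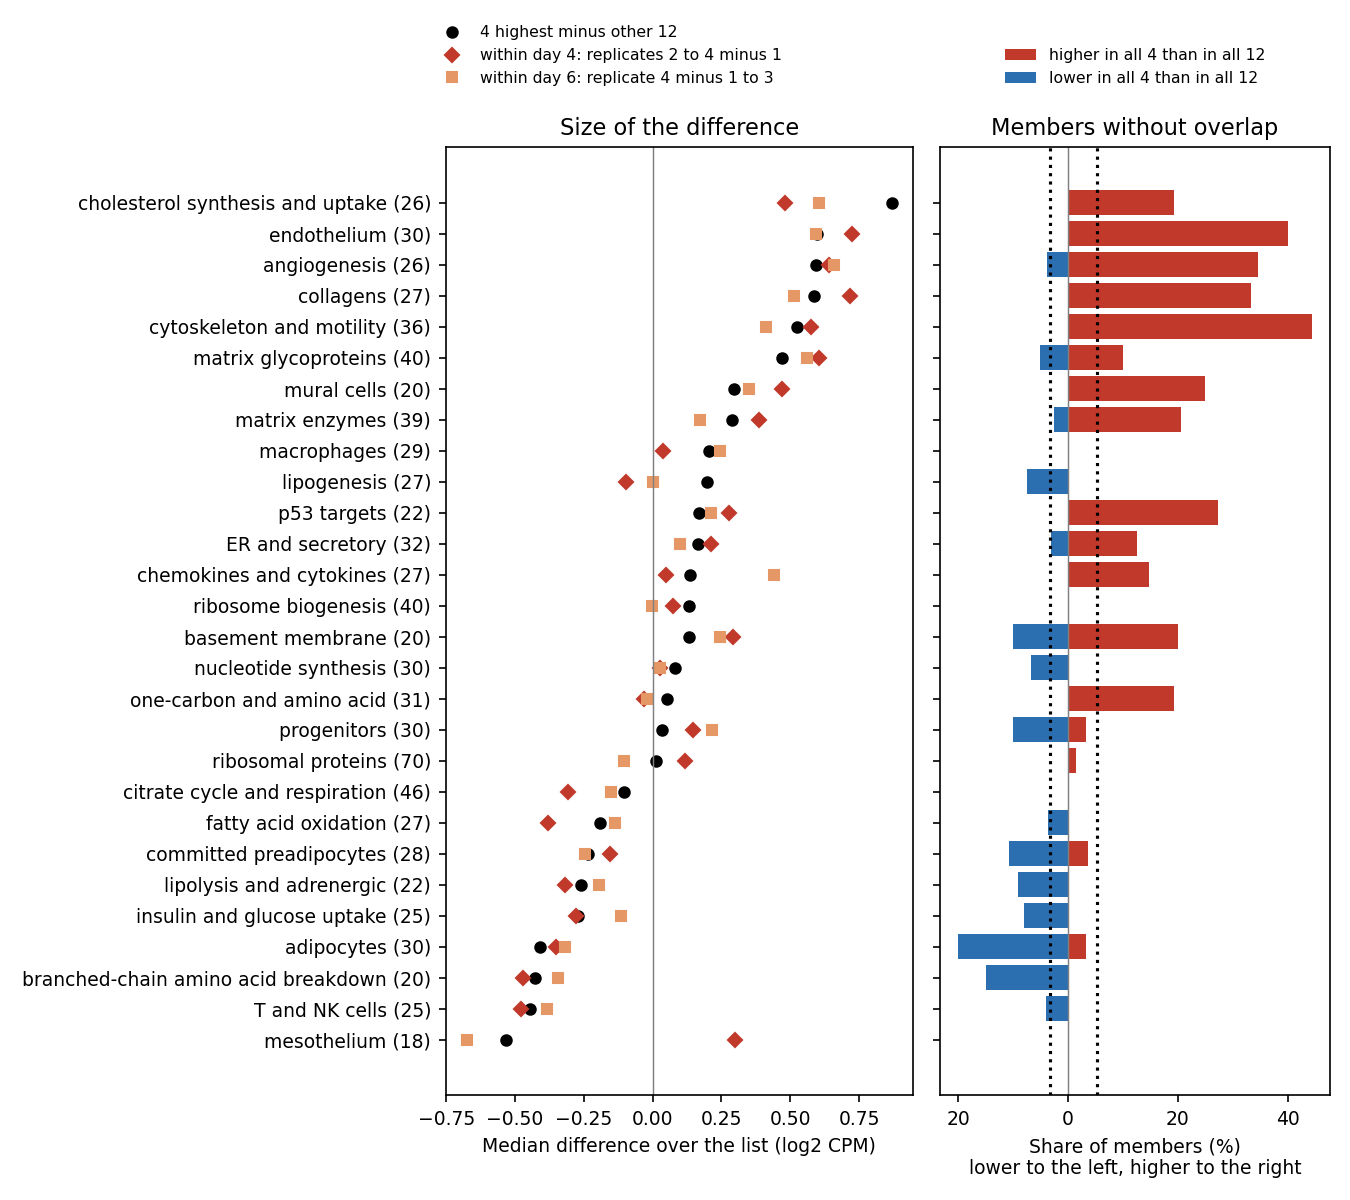
Left: median log2 CPM difference over each gene list (number measured in brackets) for the 4 highest minus the other 12 (black), within day 4 (red) and within day 6 (orange). Right: the share of each list higher (red) or lower (blue) in all 4 than in all 12, with dotted lines at the shares of all genes, 5.29% and 3.22%; cytoskeletal and endothelial lists reach furthest to the right and adipocyte genes furthest to the left.

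Collagen genes were higher in the 4, and other matrix lists were mixed. Of 27 measured collagen genes (28 listed) 9 were higher without overlap and 0 lower, with a median difference of 0.59. On day 4, 7 of the 27 rose against the other days and 0 fell. Col12a1, a collagen that coats fibril surfaces, had 82.4, 80.1, 70.2 and 49.7 CPM in the 4, against 6.47 to 38.6 CPM in the 12 (median 17.3 CPM) and 3.59 to 11.9 CPM in chow. Again no library of the 12 reached the 4, and day 6 replicate 4 was the lowest of them. It rose on day 4 by 1.66 ± 0.45 against the other days (adjusted p = 0.032) and by 2.90 against chow (adjusted p = 0.0028), on the log2 scale. The collagen VI genes, whose chains form beaded filaments around fat cells, were close to each other, with differences of 1.10, 1.21 and 1.38 for Col6a1, Col6a2 and Col6a3. Each rose on day 4 (adjusted p = 0.025, 0.024 and 0.018). Of the genes for chains of basement membranes, Col4a1 averaged 4022 ± 197 CPM in the 4 and 1994 ± 271 CPM in the 12. Col1a1, the main fibrillar chain, averaged 625 ± 208 CPM in the 4 and 331 ± 105 CPM in the 12 and overlapped.

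Of 40 matrix glycoproteins 4 were higher and 2 lower without overlap, and of 20 basement membrane genes 4 were higher and 2 lower. Of all genes 5.29% were higher and 3.22% lower. On day 4, 3 glycoprotein genes rose and 2 fell, and 2 basement membrane genes rose and 1 fell, where 4.04% of all genes rose and 3.14% fell. Postn, encoding periostin, a matrix protein of healing tissue, had 578, 460, 231 and 442 CPM in the 4, against 84.7 to 202 CPM in the 12 (median 133 CPM). Day 4 replicate 4 was the lowest of the 4 and still above the 12. Postn rose on day 4 by 1.16 ± 0.32 on the log2 scale (adjusted p = 0.034). Tenascin C, Tnc, had 19.5 to 34.3 CPM in the 4 and 7.44 to 15.999 CPM in the 12, with its lowest value in day 4 replicate 1 (adjusted p on day 4 = 0.29). The perlecan gene Hspg2 and the nidogen gene Nid2 were higher by 0.88 and 1.07 and rose on day 4 (adjusted p = 0.044 and 0.016). Vtn, which encodes vitronectin, Smoc1 and Lamc3 were lower, with differences of -1.09, -1.10 and -0.88. Among 39 matrix enzymes and their inhibitors (40 listed) 8 were higher and 1 lower. Adamts4, which cleaves proteoglycans, averaged 25.3 ± 2.86 CPM in the 4 and 7.82 ± 2.29 CPM in the 12, the protease gene Mmp9 2.65 ± 0.91 CPM in the 4 and 9.95 ± 4.48 CPM in the 12. In the secretory pathway the collagen chaperone gene Serpinh1 had 1257, 1655, 1477 and 1168 CPM in the 4, against 443 to 984 CPM in the 12 (median 715 CPM). It rose on day 4 by 0.82 ± 0.23 on the log2 scale (adjusted p = 0.036), and 5 of the 32 secretory genes did.

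**Figure D4:**
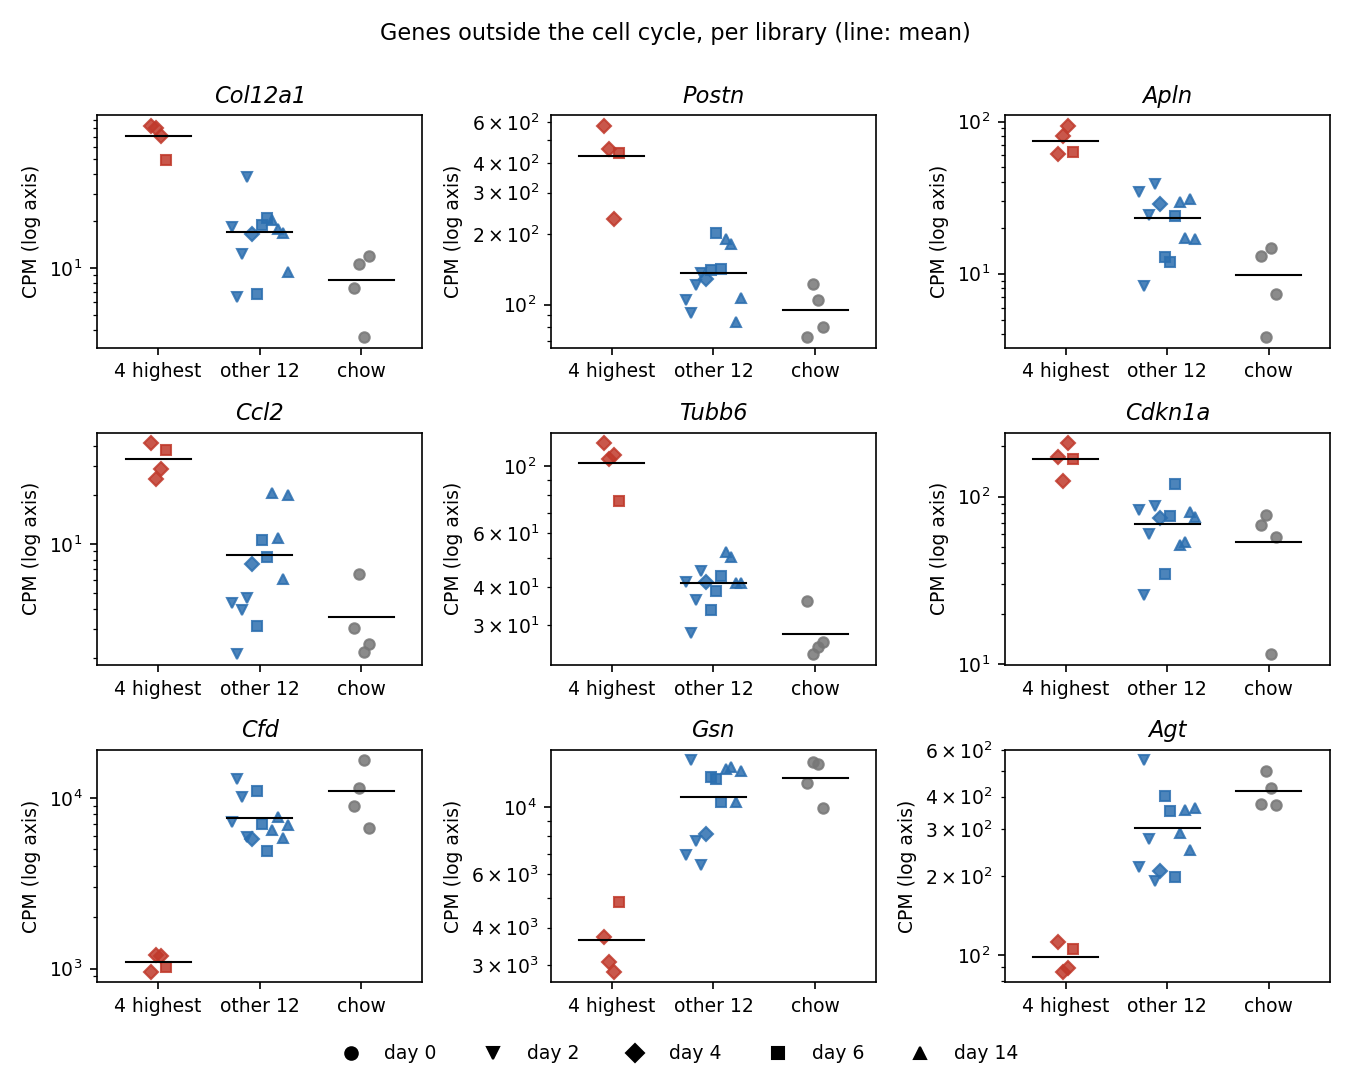
CPM on a log axis for 9 genes in the 4 highest (red), the other 12 (blue) and the chow libraries (grey), with marker shapes for the day and a line at the mean. The 9 were picked for display from named genes without overlap, so their separation of the 4 from the 12 follows from that choice. The upper 6 are higher and Cfd, Gsn and Agt lower in the 4. For the same reason the day 4 library among the 12 (blue diamond) lies with the 12.

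Endothelial genes were higher in the 4 in a similar way. Of 30 markers 12 were higher without overlap and 0 lower, with median differences of 0.60 against the 12, 0.73 within day 4 and 0.59 within day 6. On day 4, 9 of the 30 rose against the other days and 0 fell. The 30 markers together summed to 8564 to 9322 CPM in the 4 and 7382 to 8508 CPM in the 12. Cdh5, the cadherin of endothelial junctions, had 562, 648, 481 and 591 CPM in the 4, against 226 to 391 CPM in the 12 (median 261 CPM). The 4 lay above the 12 without overlap, and day 4 replicate 1 had 257 CPM. Cdh5 rose on day 4 by 0.71 ± 0.21 on the log2 scale (adjusted p = 0.044). Pecam1, an adhesion molecule between endothelial cells, had 352 to 411 CPM in the 4 and 171 to 286 CPM in the 12, with an adjusted p of 0.082 on day 4. Kdr, the main VEGF receptor, overlapped, at 236 to 300.3 CPM in the 4 and 154 to 278 CPM in the 12. Kdr rose on day 4 by 0.46 ± 0.13 on the log2 scale (adjusted p = 0.035). The adrenomedullin co-receptor gene Ramp2 overlapped too, at 88.2 to 125 CPM in the 4 and 59.5 to 90.3 CPM in the 12 (adjusted p on day 4 = 0.10). Fabp5 and Rbp7, carriers of fatty acids and retinol in capillaries, were higher by 1.34 and 1.37.

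Angiogenic signals accompanied the endothelial markers. Of 26 measured genes (27 listed) 9 were higher and 1 lower without overlap, and on day 4 4 rose and 1 fell. Apln encodes apelin, a peptide of growing vessel tips, and Aplnr its receptor. Apln had 61.4, 79.9, 93.9 and 63.3 CPM in the 4, against 8.25 to 38.7 CPM in the 12 (median 24.2 CPM) and 3.84 to 14.7 CPM in chow. Its level was above the 12 in each of the 4, and day 6 replicate 4 was about as high as day 4 replicate 2. Apln rose on day 4 by 1.36 ± 0.41 against the other days (adjusted p = 0.048). Aplnr had 159, 161, 118 and 152 CPM in the 4, against 29.5 to 76.2 CPM in the 12 (median 42.3 CPM), with an adjusted p of 0.075. Unc5b, a netrin receptor of vessel sprouts, was higher by 1.17 and rose on day 4 (adjusted p = 0.014). The 1 lower gene was Angpt1, a ligand of the receptor Tie2 that quiets vessels, with 4.83, 5.55, 3.92 and 6.78 CPM in the 4, against 13.8 to 49.6 CPM in the 12 (median 25.2 CPM). Its adjusted p was 0.086 on day 4.

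A few chemokines were higher in the 4, and macrophage markers did not separate the groups. Of 27 measured chemokines and cytokines (36 listed) 4 were higher without overlap and 0 lower, with a median difference of 0.13 that was -0.1095 with a stricter filter on low counts. Ccl2, which attracts monocytes, had 41.6, 24.9, 28.9 and 37.6 CPM in the 4, against 2.09 to 20.5 CPM in the 12 (median 6.77 CPM) and 2.18 to 6.51 CPM in chow. The 2 highest of the 12 were from day 14 and came near the lowest of the 4. Against the other days the day 4 change in Ccl2 was 1.46 ± 0.48 on the log2 scale (adjusted p = 0.061). Ccl7, a close relative, averaged 16.2 ± 5.05 CPM in the 4 and 4.74 ± 2.90 CPM in the 12. Ccl8, another, averaged 15.7 ± 5.03 CPM in the 4 and 4.72 ± 1.95 CPM in the 12 and was the only gene of the 27 that rose on day 4 (adjusted p = 0.012), no larger a share than the 4.04% of all genes.

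Of 29 macrophage markers 0 separated the groups in either direction, though 20 were higher on average, with a median difference of 0.21. The median was 0.04 within day 4 and 0.24 within day 6. On day 4, 2 of the 29 rose and 0 fell, where 4.04% of all genes rose. None of 15 measured monocyte and neutrophil markers (20 listed) separated the groups either. Their median difference was -0.15, but 0.0356 with a stricter filter and 0.0778 without day 4 replicate 4. The macrophage receptor gene Adgre1 had 52.3, 49.7, 25.2 and 49.7 CPM in the 4, against 28.1 to 53.6 CPM in the 12 (median 39.97 CPM). Day 4 replicate 4 held the lowest Adgre1 level of all 16 libraries while its proliferation sum was the second of the 4. Lyz2, the lysozyme of macrophages, likewise ran from 286 to 505 CPM in the 4 and from 288 to 653 CPM in the 12. Markers of T and natural killer cells (25 measured of 30) had a median difference of -0.45 and those of B cells, dendritic cells and mast cells (24 measured of 26) one of -0.69, with 1 and 0 members lower without overlap. The T-cell receptor subunit gene Cd3e was that 1, at 0.26 ± 0.13 CPM in the 4 and 0.80 ± 0.22 CPM in the 12, levels of few reads. No member of either list passed the day 4 test.

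Genes of a list made for p53 targets, which also holds general stress genes such as Gadd45b, were partly higher. Whether p53 drove them was not tested. Of 22 measured (23 listed) 6 were higher without overlap and 0 lower, and 3 rose and 1 fell on day 4. Cdkn1a encodes p21, an inhibitor of cyclin-dependent kinases that halts the cell cycle. It had 172, 124, 209 and 167 CPM in the 4, against 25.9 to 119 CPM in the 12 (median 75.5 CPM). The groups did not overlap, though the lowest of the 4 (day 4 replicate 3) was close to the highest of the 12. On day 4 the change in Cdkn1a was 0.97 ± 0.40 on the log2 scale (adjusted p = 0.12). Gadd45b, a stress-induced growth arrest gene, averaged 14.6 ± 3.89 CPM in the 4 and 5.18 ± 1.32 CPM in the 12. The receptor gene Eda2r averaged 7.69 ± 1.92 CPM in the 4 and 2.44 ± 0.72 CPM in the 12. Both rose on day 4 (adjusted p = 0.018 and 0.046).

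Supply pathways of growing cells differed in how far they went along. Of 31 genes of serine, one-carbon and amino acid supply (32 listed) 6 were higher without overlap and 0 lower, while the median difference was 0.05. The higher ones included the amino acid transporter gene Slc7a5, at 11.7 ± 1.97 CPM in the 4 and 5.00 ± 0.89 CPM in the 12. Mthfd1l and Aldh1l2, enzymes of mitochondrial folate metabolism, averaged 5.38 ± 1.06 and 3.60 ± 1.60 CPM in the 4, and 2.07 ± 0.65 and 1.04 ± 0.46 CPM in the 12, and both rose on day 4 (adjusted p = 0.029 and 0.025). Of 35 DNA repair genes outside the cell-cycle list, 3 were higher without overlap, where 5.29% of all genes were. The 3 differed by small amounts: Parp1 by 0.22, Lig3 by 0.30 and Ercc1 by 0.34. Of 40 ribosome biogenesis genes 34 were higher on average, with a median difference of 0.13, yet 0 separated the groups. Of 70 ribosomal protein genes 1 did, Rplp0, at 655 ± 54.5 CPM in the 4 and 529 ± 23.9 CPM in the 12. Nucleotide synthesis had 0 of 30 genes higher and 2 lower, Tk2 and Rrm2b, which serve nucleotide supply outside S phase and differed by -0.51 and -0.38. Of 33 chromatin genes and of 46 genes of the citrate cycle and respiration 0 separated the groups, with median differences of 0.10 and -0.10.

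Cholesterol synthesis and uptake had the largest positive median difference of the lists outside the cell cycle, 0.87, with 25 of 26 genes higher on average and 5 without overlap. On day 4, 10 of the 26 rose against the other high-fat days and 0 fell. Tm7sf2, a sterol reductase gene, had 21.2, 22.9, 26.8 and 19.7 CPM in the 4, against 6.32 to 17.8 CPM in the 12 (median 12.1 CPM). The 4 lay above the 12, day 4 replicate 4 highest. Its change missed the threshold on day 4, with an adjusted p of 0.0504. Stard4, a sterol carrier, averaged 34.3 ± 3.61 CPM in the 4 and 17.7 ± 3.96 CPM in the 12. Hmgcs1, which acts early in the pathway, overlapped, at 618 to 822 CPM in the 4 and 238 to 846 CPM in the 12. Insig1, a brake on sterol synthesis that sterol-poor cells induce, had 470 to 1285 CPM in the 4 and 128 to 781 CPM in the 12. Insig1 thus overlapped, and it rose on day 4 by 1.27 ± 0.35 on the log2 scale (adjusted p = 0.037). Lipogenesis did not separate the groups in the higher direction, with 0 of 27 genes higher and 2 lower, and fatty acid synthase, Fasn, ran from 6690 to 11321 CPM in the 4 and from 2097 to 11643 CPM in the 12.

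Most adipocyte genes were lower on average in the 4, 24 of the 30 measured. Of the 30 markers 6 were lower and 1 higher without overlap, with median differences of -0.41 against the 12, -0.35 within day 4 and -0.32 within day 6. On day 4, 9 of the 30 fell against the other days (3.14% of all genes fell) and 0 rose. The 30 markers summed to 32435 to 36399 CPM in the 4 and 43892 to 57493 CPM in the 12, with no overlap. Cfd, which encodes adipsin, a complement protease secreted by fat cells, had 956, 1207, 1188 and 1020 CPM in the 4, against 4893 to 12858 CPM in the 12 (median 7000 CPM) and 6624 to 16580 CPM in chow. Day 4 replicate 1 had 5764 CPM, among the 12. The day 4 change in Cfd was -1.65 ± 0.52 on the log2 scale (adjusted p = 0.054). Agt, the precursor of angiotensin, had 112, 86.6, 89.4 and 105 CPM in the 4, against 192 to 548 CPM in the 12 (median 284 CPM), and fell on day 4 (-1.24 on the log2 scale, adjusted p = 0.031). Adipoq, the adiponectin gene, had 1253, 1776, 1161 and 2038 CPM in the 4, against 1928 to 4789 CPM in the 12 (median 3413 CPM). Day 6 replicate 4 overlapped the lowest of the 12 in Adipoq, which fell on day 4 (-0.86 on the log2 scale, adjusted p = 0.0497). Plin1, which coats the lipid droplet, overlapped, with a difference of -0.35.

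The 1 marker higher without overlap was Lep, which encodes leptin, the satiety hormone of fat cells. It had 2677, 2795, 3075 and 2535 CPM in the 4, against 927 to 2254 CPM in the 12 (median 1546 CPM) and 374 to 903 CPM in chow. All 4 libraries were above the 12. Its day 4 change against the other days was 0.68 ± 0.24 on the log2 scale (adjusted p = 0.082), and against chow 2.05 (adjusted p = 0.00093). Mest, an imprinted gene of expanding fat cells, had 729, 688, 722 and 478 CPM in the 4, against 131 to 631 CPM in the 12 (median 357 CPM) and overlapped through day 6 replicate 4.

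Several metabolic genes of the fat cell were lower as well. All 20 genes of branched-chain amino acid breakdown were lower on average, with a median difference of -0.43, and 3 without overlap. Dbt, a subunit of the dehydrogenase that commits these amino acids, had 67.2, 74.1, 78.7 and 85.05 CPM in the 4, against 97.2 to 142 CPM in the 12 (median 125 CPM). Its adjusted p was 0.075 on day 4, where 2 of the 20 genes fell and 0 rose. In lipolysis, Lipe, hormone-sensitive lipase, averaged 1501 ± 73.1 CPM in the 4 and 2098 ± 210.4 CPM in the 12. Pde3b, through which insulin restrains lipolysis, averaged 267 ± 34.4 CPM in the 4 and 472 ± 81.3 CPM in the 12. The insulin receptor substrate gene Irs1 averaged 26.4 ± 3.32 CPM in the 4 and 45.0 ± 7.38 CPM in the 12. None of Lipe, Pde3b and Irs1 passed the day 4 test (adjusted p = 0.059, 0.054 and 0.13). Trarg1, which serves glucose transporter traffic, overlapped, at 607 to 728 CPM in the 4 and 502 to 782 CPM in the 12.

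Markers of progenitors were split, and more preadipocyte genes were lower than higher. Of 30 genes that mark adipocyte progenitors 1 was higher and 3 lower without overlap, and of 28 measured preadipocyte genes (29 listed) 1 was higher and 3 lower, with median differences of 0.03 and -0.23. On average 15 of the 30 and 11 of the 28 were higher in the 4. The 1 higher preadipocyte gene was Col4a1, the basement membrane chain named above. Of all genes 5.29% were higher and 3.22% lower without overlap. On day 4, 1 progenitor gene rose and 1 fell, and 1 preadipocyte gene rose and 5 fell, where 4.04% of all genes rose and 3.14% fell. Gsn, an actin-severing protein abundant in fat stroma, had 3730, 3078, 2854 and 4854 CPM in the 4, against 6457 to 14253 CPM in the 12 (median 11412 CPM). It fell on day 4 (-1.22 on the log2 scale, adjusted p = 0.022) and makes up much of the sum of the 30 markers, 4113 to 6408 CPM in the 4 and 7620 to 15584 CPM in the 12. Pdgfra, the receptor that defines these cells, overlapped, at 30.3 to 49.5 CPM in the 4 and 42.6 to 110 CPM in the 12. Ebf2 and Ebf1, transcription factors of the fat lineage, were lower, with differences of -1.01 and -0.76, and Ebf1 fell on day 4 (adjusted p = 0.013). Zfp423, a regulator of preadipocyte commitment, had 55.9 to 64.4 CPM in the 4 and 44.8 to 65.0 CPM in the 12. Of 39 measured growth factor genes (42 listed) 3 were higher and 4 lower without overlap, where 5.29% and 3.22% of all genes were. Kitl, the ligand of the receptor Kit, averaged 109 ± 3.86 CPM in the 4 and 62.8 ± 6.94 CPM in the 12 and rose on day 4 (adjusted p = 0.023). Fgf10 and Nrg4, growth factors of fat, averaged 50.8 ± 8.66 and 58.7 ± 7.09 CPM in the 4, and 85.5 ± 14.2 and 110 ± 15.02 CPM in the 12.

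The genes with the largest differences were mostly scarce ones better known from other tissues. Tph2, the tryptophan hydroxylase of serotonin neurons, had 22.7, 19.97, 18.2 and 13.1 CPM in the 4, against 0.61 to 4.44 CPM in the 12 (median 2.01 CPM) and 0.38 to 0.84 CPM in chow. It rose on day 4 by 2.51 ± 0.56 on the log2 scale (adjusted p = 0.017), and the 4 were far above every other library. Ncan, encoding neurocan, a brain proteoglycan, had 70.8, 92.8, 110.2 and 52.7 CPM in the 4, against 4.21 to 30.5 CPM in the 12 (median 11.1 CPM). Fgf13, an intracellular relative of growth factors that binds sodium channels, had 38.4, 44.2, 39.2 and 34.9 CPM in the 4, against 2.08 to 30.4 CPM in the 12 (median 8.06 CPM). Ncan and Fgf13 rose on day 4 (adjusted p = 0.022 and 0.033). Plppr4, Hephl1, Acoxl, Smtnl2, Fbn2 and Wnt8b, also among the 12 largest, were higher by 2.40 to 3.27 and rose too. The largest difference of all, 4.48, was in Rnase2a, a ribonuclease of a family with near-identical copies whose reads could be split, so its value is uncertain. F2rl3, a thrombin receptor gene, and Tekt1, a cilium gene, did not pass the day 4 test (adjusted p = 0.0501 and 0.075).

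Among the 12 largest differences downward was Inmt, a methyltransferase of indoles. Inmt had 1.26, 1.78, 2.94 and 0.97 CPM in the 4, against 8.22 to 107 CPM in the 12 (median 34.02 CPM), and 62.5 to 122 CPM in chow. Its adjusted p was 0.12 on day 4. Cyp2e1, a cytochrome of fatty acid and solvent oxidation, averaged 517 ± 275 CPM in the 4 and 2862 ± 1580 CPM in the 12, with an adjusted p of 0.076 on day 4. Ncam2, Ces1f, Dok7, Cyp2f2, Ifi27l2a and Alpk3 were lower, with differences of -4.05 to -2.35, and did not pass the day 4 test. Ncam2 had 0 reads in day 4 replicates 2 and 3, and Dok7 had 0 in day 4 replicate 3. There 3 reads would be 0.6365 CPM in replicate 2 and 0.6552 CPM in replicate 3. In day 4 replicate 4 they would be 0.1924 CPM, and Ncam2 had 0.065 CPM there. Alpk3 was below the level of 3 reads in day 4 replicates 2 to 4, at 0.21, 0.44 and 0.065 CPM. The sizes of the differences in Ncam2, Dok7 and Alpk3 are therefore uncertain.

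A last comparison left the 4 out. Within the other 12 libraries, with the day as a term, each gene was tested for a slope on the log2 of the summed proliferation genes, which there spanned 16.7 to 56.1 CPM. With edgeR's quasi-likelihood test 1 gene outside the cell cycle had a positive slope at an adjusted p under 0.05 (0.00672% of 14889) and 0 a negative one (0%). At an unadjusted p under 0.05 there were 976 genes (6.56%), 453 positive and 523 negative, and DESeq2 called 36 positive and 19 negative. The 1 gene was Rasl12, a small GTPase, with a slope of 0.95 log2 units per doubling (adjusted p = 0.044). Its call was lost without 8 of the 12 libraries, each left out in turn, and overlapping values of 84.9 to 102 CPM in the 4 and 32.7 to 96.6 CPM in the 12 did not set it apart. Without day 14 replicate 1 there were 66 calls.

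The lists differed in the direction of their slopes in these 12 libraries. Of the cholesterol genes, 25 of 26 had positive slopes, with a median of 0.61 log2 units per doubling, against 7145 of 14889 genes with a median of -0.01. That median ran from 0.31 (without day 2 replicate 2) to 0.97 when each of the 12 was left out in turn. Lipogenesis, with 0 genes higher in the 4 without overlap, also had 22 of 27 positive slopes. Its median was 0.34 (0.19 without day 2 replicate 2, to 0.45). Cytoskeletal genes had 34 of 36 positive slopes with a median of 0.13, which ran from 0.11 to 0.19. Citrate cycle and respiration genes had 43 of 46 positive slopes and a median of 0.12 (0.03 to 0.31). Between the 4 and the 12 they went the other way, with 7 of 46 higher on average and a median difference of -0.10. Adipocyte genes had 10 of 30 positive slopes and a median of -0.11 (-0.14 to -0.08). Endothelial genes had 16 of 30 positive slopes and a median of 0.01, which ran from -0.15 without day 14 replicate 1 to 0.09. Collagens had 21 of 27 positive slopes and a median of 0.08, and matrix glycoproteins 15 of 40 with a median of -0.04, and both medians changed sign or size without day 14 replicate 1, at -0.06 and -0.31. No list member was called at an adjusted p under 0.05, and members of a list share libraries, so these counts describe the 12 libraries only.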

How the data were processed

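RNA of epididymal fat was measured in 20 libraries, 4 in each of 5 groups, with column-kit RNA and Illumina TruSeq libraries per the labels' protocols. Values were taken as deposited, as whole-number counts without normalization, for 39179 Ensembl IDs. CASAVA, STAR, featureCounts, limma and R 3.0 are named per the submitters' processing notes, without their roles. The genome build, annotation and strand setting are not given in the sources used here, so overlapping and antisense genes cannot be told apart. A gene name table gave symbols for 37607 IDs, matched on Ensembl ID.

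Total counts ran from 1916829 to 38832429 per library, a 20.3-fold span, and a gene's precision follows its count. The 3 proliferation genes were summed as CPM on plain totals. Other levels are CPM on TMM-scaled totals, and differences are of mean log2 CPM with a prior count of 2. edgeR's filterByExpr (minimum count 10, minimum total 15) left 15254 genes, which held at least 99.5% of each library's counts, and 14889 of them lie outside the cell-cycle list. edgeR 4.0.16 in R 4.3.3 fitted all 20 libraries by group (quasi-likelihood, robust, 15 residual degrees of freedom, biological coefficient of variation 0.209), with Benjamini-Hochberg adjustment over all tested genes. A second fit tested the slope on log2 of the proliferation sum in the other 12 libraries with the day as a term (7 residual degrees of freedom). Steps were tested on simulated data. DESeq2 1.42.0, limma-voom (limma 3.58.1), other scalings and filters, the replicate number as a term, 3 or 5 libraries in place of 4, and leaving out each library were alternatives. Where nothing says that libraries come from separate mice, p-values measure only the spread between them. A count of 0 was read as up to 3 reads, and such floors cover counting error only.

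Named genes were a panel of 26, the 12 largest differences each way without overlap (mean of at least 1 CPM, no clone names), up to 4 members without overlap per list or else the 2 most expressed, and the 8 smallest p of the slope fit. The members, gene lists, tests and this rule were chosen with earlier results of these data known. Some genes that this rule names are not reported here.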

Additional observations from a re-analysis of the deposited data

Results flagged for a closer look

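In 46 measures (the proliferation sum and 45 named genes) the 4 libraries of each of the 5 labelled groups were screened for a highest or lowest value far from the others by Dixon's criterion, 230 groups in all, with 25 values marked. Chance marks about 1 in 20 groups, and most of these genes were chosen for their gap between the 4 and the 12, which by itself sets day 4 replicate 1 and day 6 replicate 4 apart from their day.

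Day 6 replicate 4 stood apart in the proliferation sum, at 216.1 CPM with the next library of its day at 56.13 CPM. It was also far from the rest of day 6 in Acoxl (2.856 CPM) and F2rl3 (7.783 CPM). Day 4 replicate 1 was far above the other day 4 libraries in Angpt1 (24.35 CPM), Ces1f (115.5 CPM), Cfd (5764 CPM), Cyp2e1 (1999 CPM), Ifi27l2a (1024 CPM), Inmt (22.76 CPM) and Ncam2 (3.116 CPM). It was far below them in Fgf13 (8.648 CPM), Mest (230.7 CPM) and Tekt1 (0.6994 CPM).

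Other libraries were marked for single genes. Day 4 replicate 4 was low in Adgre1 (25.17 CPM, next 49.71 CPM), although it was among the 4 with most proliferation. Day 2 replicate 3 was high in Col1a1 (334.6 CPM) and day 2 replicate 2, with the lowest proliferation sum of the 12, was low in Fasn (2332 CPM, next 9905 CPM). Day 6 replicate 1 was high in Dok7 (4.713 CPM) and Inmt (64.29 CPM). Day 14 replicate 3 was high in Hephl1 (5.586 CPM) and Ncan (28.39 CPM), and day 14 replicate 4 in Wnt8b (0.9328 CPM). Among the chow libraries, replicate 1 was high in Hephl1 (3.722 CPM) and Ncan (6.165 CPM), replicate 3 in Wnt8b (0.4556 CPM), and replicate 4 in Tekt1 (10.94 CPM). Chow replicate 4 also had 41.19 CPM of the epididymal duct gene Epcam.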

How the results depend on the processing

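Day 4 against days 2, 6 and 14 gave 1068 calls outside the cell-cycle list. It gave 409 with no filter, 1729 with DESeq2, 103 with limma-voom, 617 with only the high-fat groups and 3204 without day 4 replicate 1 and day 6 replicate 4, an alternative chosen after seeing the data that follows the split by proliferation. Leaving out each library gave 0 (any 1 of day 4 replicates 2 to 4) to 2691 calls (without day 4 replicate 1), and the count moved by over 1.5 times also without day 2 replicates 2 (536), 3 (604) and 4 (1830), day 6 replicates 1 (536), 2 (531) and 4 (1940) and day 14 replicate 2 (416). Of 64 named genes called, 0 were called in every such fit. Day 4 against chow gave 5099 calls, 2978 (without day 4 replicate 4) to 5416 (without day 4 replicate 1) with each library left out, and 1502 higher and 3674 lower on plain library sizes. Without chow replicate 4, the library with Epcam reads, that comparison gave 3858 calls. The slope in the other 12 libraries gave 1 call, and 0 with library size only, a stricter filter, no day term or the whole cell-cycle list as the level, 6 with no filter, 55 with DESeq2, and 0 to 66 with each library left out. The 1266 genes without overlap became 193 with the 5 highest libraries, 1371 with the 3 highest (688 higher and 683 lower), and 1276 to 1980 with each library left out. The correlation of the within-day differences was 0.4229 with no filter and 0.7246 with a stricter one. The cause of these changes was not tested, except that fewer libraries or genes enter some of the fits. With the replicate block, calls were 1357 for day 4 against the other days, 5214 for day 4 against chow and 1 for the slope, a negative one, and Rasl12 lost its call (adjusted p = 0.3058). Same-numbered libraries deviated with correlations of -0.185 to 0.516, and 10 of 20 correlated best with their own number, so the numbers were not taken as pairs. Of 1056 list medians under the alternatives 16 moved by more than the spread. Sign changes were counted only for lists whose main median was more than 0.1 from 0, and there were 3. These were the monocyte and neutrophil list (0.0356 with a stricter filter, 0.0778 without day 4 replicate 4) and the chemokine list (-0.1095 with a stricter filter). Genes of few reads are limited by the shallow libraries, where 3 reads are up to 1.56 CPM.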
